A study of Mus musculus with 12 samples.

Results

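The Wnt genes described here were 46 of the 19937 genes measured by the arrays of the study: 19 Wnt ligands, 12 receptors, 11 secreted antagonists and 4 genes of the nuclear and feedback arm. They were taken by name. Every gene with a single symbol of the Wnt, Fzd, Sfrp and Dkk families was a member, together with Frzb, Wif1, Sost, Lrp5, Lrp6, Axin2, Lef1, Nkd1 and Nkd2. Tcf7 is not analysed here. A gene was represented by its brightest probe set over the 12 arrays, and only Wnt4 had more than 1. All values are log2 expression, and a difference of 1 on this scale is a change by 1 doubling.

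RNA came from osteoblasts, which form bone, and from endothelial cells, which line blood vessels, sorted from long bones of female NOD-SCID mice, a strain without functional lymphocytes. The tumor-bearing mice had been given 200000 cells of MDA-MB-231 scp1833, a bone-homing derivative of a human breast cancer line, by injection into the heart, and bone tumors developed over about 2 weeks. The 4 groups of 3 biological replicates were tumor-bearing osteoblasts, tumor-free osteoblasts, tumor-bearing endothelial cells and tumor-free endothelial cells, named by the mice they came from. The sort took cells negative for GFP, for CD45 and for the marker labelled TR119. Osteoblasts were CD51+ SCA1- CD31- and endothelial cells were SCA1+ CD31+, so both populations were defined by surface markers alone. The sources used here do not say whether mice were pooled for an array, and p-values therefore reflect the spread among these arrays only. The comparisons ask how expression in each cell type differs with tumor, and how the cell types differ from each other.

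Wnt ligands are secreted lipid-modified proteins that bind Frizzled receptors (Fzd) together with the co-receptors Lrp5 and Lrp6. Binding keeps beta-catenin from being degraded, and beta-catenin then acts with nuclear factors such as Lef1 on target genes. Secreted antagonists work outside the cell: the Sfrp proteins, Frzb and Wif1 bind the ligands, whereas Dkk1 and sclerostin (Sost) bind the co-receptors. In bone the pathway promotes osteoblast formation, and in vessels it takes part in the growth and barrier function of endothelium.

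The arrays had medians between 5.21 and 5.41. Replicates correlated at 0.946 to 0.969 in 3 groups and at 0.867 to 0.908 in tumor-free osteoblasts. The mean of 9 osteoblast markers was 5.71 to 6.11 on endothelial arrays and 8.79 to 10.09 on osteoblast arrays. The mean of 10 endothelial markers was 9.87 to 10.03 on endothelial arrays and 5.02 to 5.95 on osteoblast arrays. In the osteoblast sort, 12 chondrocyte markers averaged 9.32, 10.15 and 10.13 in tumor-bearing mice, against 9.42, 8.16 and 6.60 in tumor-free mice. The 15 hematopoietic markers averaged 6.73, 6.69 and 5.21 on the same tumor-bearing arrays, against 5.51, 8.17 and 7.71 on the tumor-free arrays. Tumor-free osteoblast replicate 1 stood below its group in the hematopoietic list. Its osteoblast marker mean was also the lowest, at 8.79 against 10.09 and 9.61 in replicates 2 and 3. The chondrocyte means of this group were spread widely, with replicate 1 the highest and replicate 3 the lowest. Results that rest on replicate 1 are given below with and without it.

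Of the 46 genes, 34 were tested, which required a value higher than the array table's median in 3 or more arrays. The other 12 were the ligands Wnt1, Wnt2, Wnt3, Wnt3a, Wnt5a, Wnt7a, Wnt8a, Wnt8b and Wnt16, the receptor Fzd8 and the antagonists Dkk4 and Sfrp5. Their values ran from 3.61 for Wnt1 to 5.89 for Wnt5a over all arrays. Ligands thus formed 9 of the 12 genes left out, and 10 of the 19 ligands were tested. Of the genes called below, Frzb, Sfrp2 and Dkk3 exceeded the median on osteoblast arrays only, and Wnt6 on tumor-free osteoblast arrays only. Dkk1 exceeded it on every osteoblast array, but among endothelial arrays only on tumor-free replicate 1. The calls of all these genes between the cell types are therefore not independent of the filter. Tests used limma across 12430 genes, with p-values adjusted by the Benjamini-Hochberg method over all of them and a threshold of 0.05.

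With tumor, 1 of the 34 tested Wnt genes changed in osteoblasts. Fzd7, a Frizzled receptor, was 2.41-fold higher in osteoblasts of tumor-bearing mice. No other receptor, no ligand, no antagonist and none of the nuclear and feedback genes passed the threshold there. Fzd7 was 1 of 34 (2.94%), and over all tested genes 4.01% were higher and 0.571% were lower in this comparison, so the share of Wnt genes called was no larger than that of all genes.

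Fzd7 measured 8.38, 8.23 and 8.13 in osteoblasts of tumor-bearing mice, against 6.87, 6.78 and 7.29 in osteoblasts of tumor-free mice. Each tumor-bearing array lay above each tumor-free array. The difference was 1.27 ± 0.21 (SE), with a limma adjusted p of 0.0102, and it passed in each of the 12 fits that left out 1 array. In a fit of these 2 groups alone, which has fewer degrees of freedom, the limma adjusted p was 0.104. In endothelial cells Fzd7 measured 7.07, 7.03 and 7.38 with tumor and 7.08, 6.55 and 6.40 without tumor, and these groups overlapped. The endothelial difference was 0.48 ± 0.21 (SE, limma adjusted p 0.696). The endothelial tumor difference minus the osteoblast one was -0.78 ± 0.29 (SE, limma adjusted p 0.239), so a difference between the cell types in the Fzd7 response was not established.

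Other gene lists differed along with Fzd7. Immediate early genes, induced rapidly by stimuli and by handling, averaged 9.78, 9.87 and 9.74 in osteoblasts of tumor-bearing mice, against 9.19, 8.63 and 8.07 in those of tumor-free mice, and 3 of 12 were called higher. In endothelial cells of tumor-free mice the same list averaged 9.69, 8.79 and 8.65, and replicate 1, the highest of the 3, was also the one with the highest Fzd7. In tumor-free osteoblasts replicate 3 had the lowest list mean (8.07) but the highest Fzd7 (7.29). The same held for replicate 3 of the tumor-bearing endothelial cells (9.68 and 7.38). In tumor-bearing osteoblasts replicate 3 was the lowest in both. Smooth muscle and pericyte markers averaged 7.97, 7.86 and 6.94 in osteoblasts of tumor-bearing mice, against 6.57, 6.18 and 6.16 in those of tumor-free mice. Of these 8 markers 3 were called higher, and over all tested genes 4.01% were called higher in this comparison. The replicates ranked alike for this list and Fzd7 in tumor-bearing osteoblasts and in tumor-free endothelial cells (list means 7.355, 6.71 and 6.50). In the other groups replicate 3 had the lowest list mean but the highest Fzd7. Fewer cells of a type and less RNA per cell cannot be told apart in such bulk samples, and the part of these lists in the Fzd7 difference was not tested. Without tumor-free osteoblast replicate 1 the Fzd7 difference was 1.21 (limma adjusted p 0.00867).

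**Figure D1:**
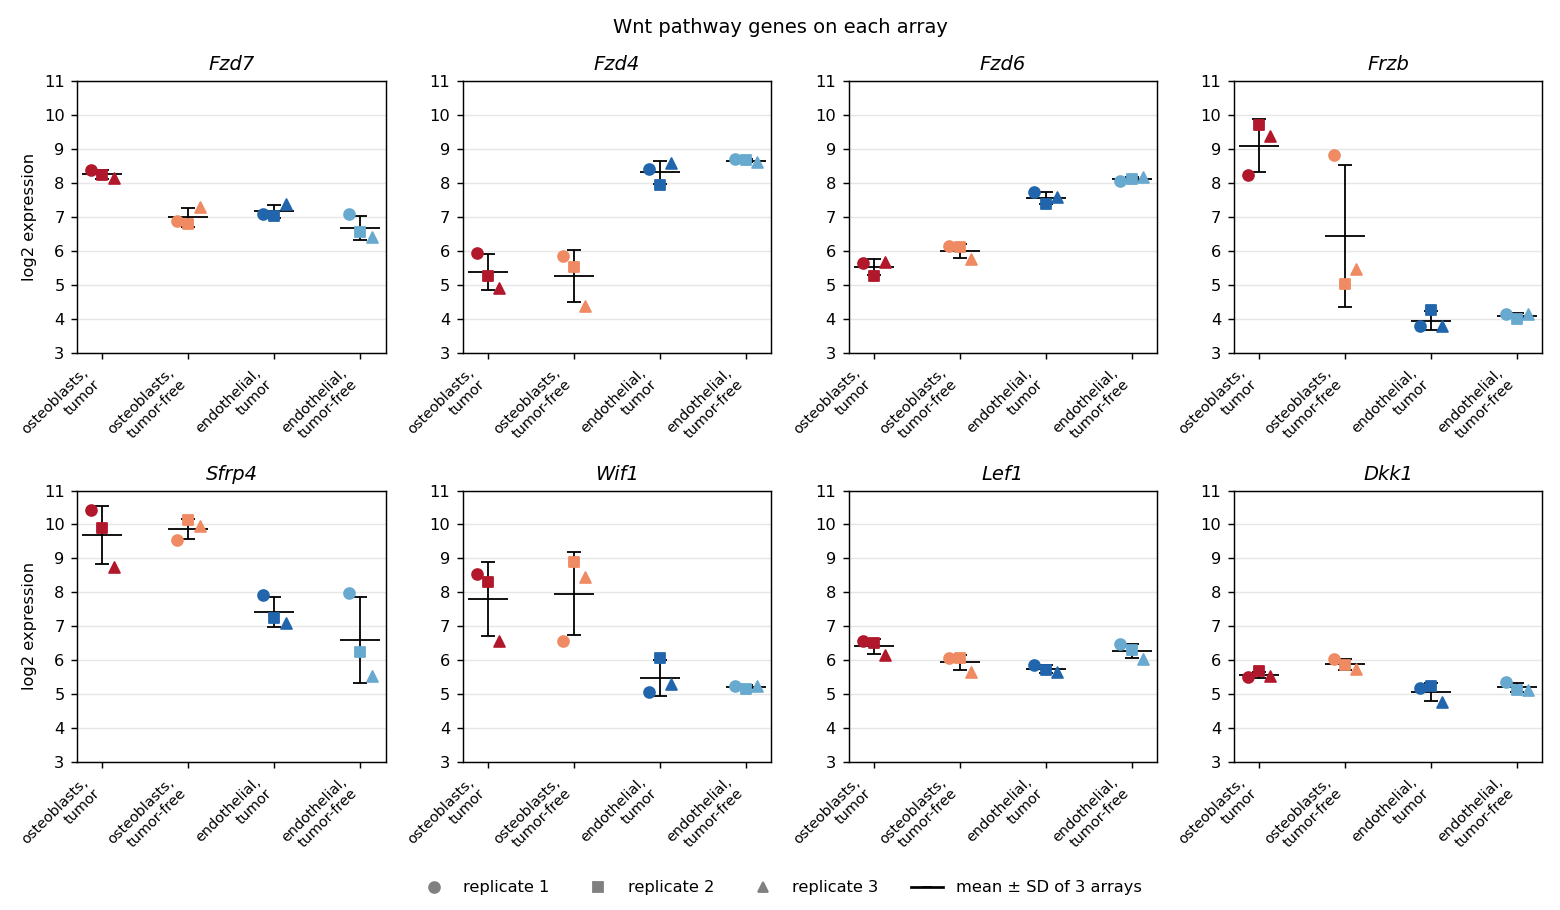
Log2 expression (y axis) of 8 Wnt pathway genes on each of the 12 arrays, by group (x axis); symbols mark replicates, and bars give the mean and SD of 3 arrays. Fzd7 lies above 8 only in osteoblasts of tumor-bearing mice, Fzd4 and Fzd6 are high in both endothelial groups, and Sfrp4 and Wif1 are high in both osteoblast groups.

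The antagonist Frzb, a secreted Frizzled-related protein known from cartilage, had the widest spread of all members among tumor-free osteoblasts. It measured 8.23, 9.69 and 9.37 in osteoblasts of tumor-bearing mice, against 8.82, 5.02 and 5.46 in those of tumor-free mice. The tumor-bearing arrays were all high, tumor-free replicate 1 was as high as they were, and tumor-free replicates 2 and 3 were low, so the groups overlapped. The difference of 2.66 ± 0.79 (SE) did not pass, with a limma adjusted p of 0.0784. Without tumor-free osteoblast replicate 1 it was 3.85, a fold of 14.5, with a limma adjusted p of 2.55e-04. That single array thus decided the call.

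Frzb followed the chondrocyte markers in part. On the tumor-free osteoblast arrays the mean of the 12 chondrocyte markers was highest in replicate 1, where Frzb was highest, but replicate 2 held a mean of 8.16 with Frzb at 5.02. Of the chondrocyte markers, 2 of 12 were called higher in osteoblasts of tumor-bearing mice (Col2a1 and Col9a2, both cartilage collagens), against 4.01% of all tested genes. The list median was 1.84, while the median of all tested genes was near 0. The part of cartilage cells in the Frzb values was not tested. In endothelial cells Frzb stayed between 3.78 and 4.26 with tumor and between 4.0 and 4.14 without tumor.

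**Figure D2:**
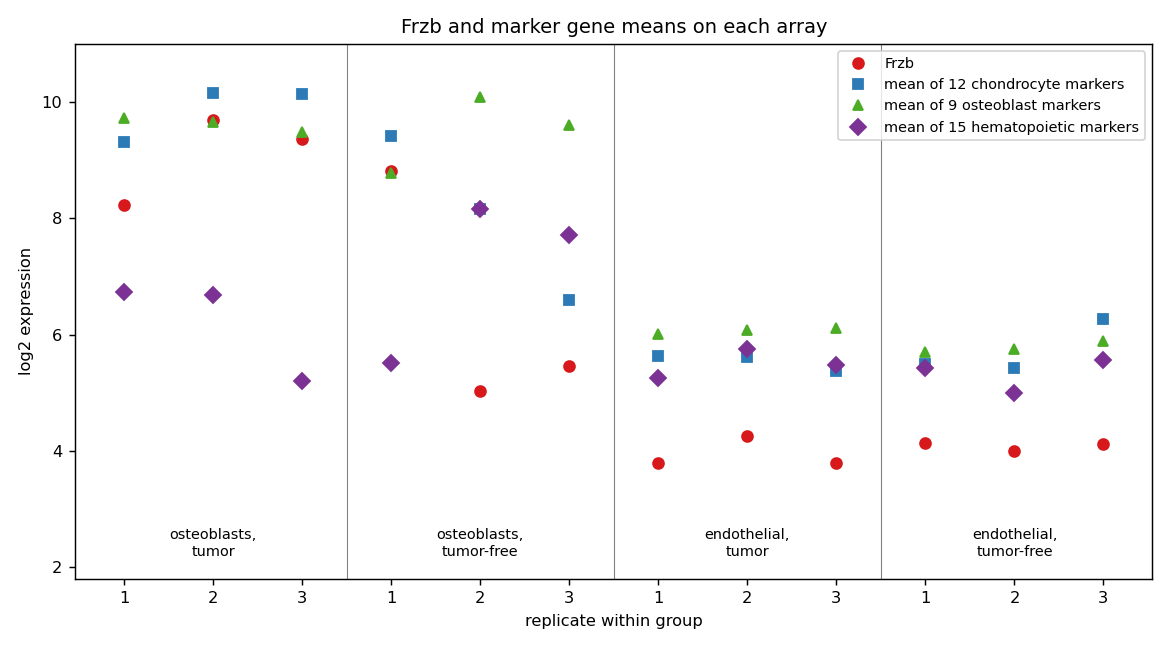
Log2 expression (y axis) of Frzb and the mean log2 expression of the chondrocyte, osteoblast and hematopoietic marker lists on each array, by group and replicate (x axis). Frzb and the chondrocyte mean are both high on the 3 tumor-bearing osteoblast arrays and on tumor-free osteoblast replicate 1, and on tumor-free replicate 2 Frzb is 5.02 while the chondrocyte mean is 8.16.

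The remaining antagonists gave no call with tumor in osteoblasts. Sclerostin, encoded by Sost and made mainly by osteocytes, measured 5.76, 5.86 and 6.17 with tumor and 6.38, 6.09 and 6.44 without tumor, a difference of -0.37 ± 0.17 (SE, limma adjusted p 0.214). Its groups overlapped at replicate 3 of the tumor-bearing mice. Dkk1, which removes the co-receptors from signalling, measured 5.50, 5.67 and 5.53 with tumor and 6.05, 5.87 and 5.73 without tumor, a difference of -0.32 ± 0.16 (SE, limma adjusted p 0.253). All tumor-bearing values of Dkk1 lay below all tumor-free values, by a small margin. Wif1 measured 8.56, 8.32 and 6.57 with tumor and 6.57, 8.90 and 8.44 without tumor, and in each group 1 array was well below the others. Its difference was -0.15 ± 0.61 (SE, limma adjusted p 0.898), and leaving out single arrays turned its sign.

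The nuclear and feedback genes, which are themselves induced by beta-catenin signalling in many tissues, also gave no call with tumor in osteoblasts. Axin2, a scaffold of the complex that degrades beta-catenin, measured 6.26, 6.13 and 6.43 with tumor and 6.17, 6.14 and 6.09 without tumor. Its difference of 0.14 ± 0.17 (SE) was within the spread of the replicates (limma adjusted p 0.641). Nkd1, a Dishevelled-binding feedback inhibitor, measured 7.20, 6.64 and 6.37 with tumor and 6.07, 6.16 and 7.14 without tumor. Its relative Nkd2 measured 6.95, 5.96 and 5.09 with tumor and 5.30, 5.18 and 5.70 without tumor, with 1 high array in the tumor-bearing group. Their limma adjusted p-values were 0.57 and 0.338, and both pairs of groups overlapped.

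Lef1, the nuclear partner of beta-catenin, measured 6.57, 6.50 and 6.16 in osteoblasts of tumor-bearing mice, against 6.07, 6.07 and 5.67 in those of tumor-free mice. In endothelial cells it measured 5.87, 5.71 and 5.65 with tumor, against 6.47, 6.30 and 6.05 without tumor. In neither cell type did the groups overlap, and tumor-bearing values were the higher ones in osteoblasts and the lower ones in endothelial cells. The differences were 0.47 ± 0.18 in osteoblasts (SE, limma adjusted p 0.14) and -0.53 ± 0.18 in endothelial cells (SE, limma adjusted p 0.522). The endothelial difference minus the osteoblast difference was -0.999 ± 0.25 (SE), and its limma adjusted p of 0.122 was the smallest of the 34 members in this test but was over the threshold. When tumor-free osteoblast replicate 1 was left out, that adjusted p was 0.0498, just inside the threshold.

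Among receptors, the co-receptors gave no call with tumor. Lrp5 measured 7.29, 7.15 and 6.57 in osteoblasts with tumor and 6.71, 7.74 and 7.50 without tumor. Lrp6 measured 7.80, 7.92 and 7.79 with tumor and 7.73, 7.86 and 6.48 without tumor, where replicate 3 was more than 1 log2 unit below the others. The groups overlapped for both genes, with limma adjusted p-values of 0.498 for Lrp5 and 0.35 for Lrp6.

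Counting direction alone, 2 of the 46 Wnt genes had all tumor-bearing osteoblast values above all tumor-free ones, and 12 had all of them below (4.35% and 26.1%). Over all 19937 genes the shares were 8.11% above and 20.6% below. Of the 12 genes, 9 were ligands, the signal proteins of the pathway. Only Wnt2b, Wnt6 and Wnt9a of these 9 were bright enough to be tested, and these 3 did not pass. Dim genes as a whole also leaned to lower values. Genes with a mean under 5 had a median osteoblast tumor difference of -0.23, those between 5 and 6 one of -0.19, and those between 7 and 8 one of 0.25. Of the 46 members, 9 had a mean under 5 and 21 a mean between 5 and 6. The 9 had a median difference of -0.30 and the 21 a median of -0.17. All tumor-bearing values were below all tumor-free ones for 5 of the 9, against 33.8% of all genes under 5, and for 6 of the 21, against 23.6% of all genes between 5 and 6. The part of the expression level in the members' lean was not tested. Without the filter on low values the ligands Wnt2 and Wnt3, both dim, were called beside Fzd7 and were lower with tumor, at -0.55 ± 0.14 (SE, limma adjusted p 0.0486) and -0.57 ± 0.13 (SE, limma adjusted p 0.0398).

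**Figure D3:**
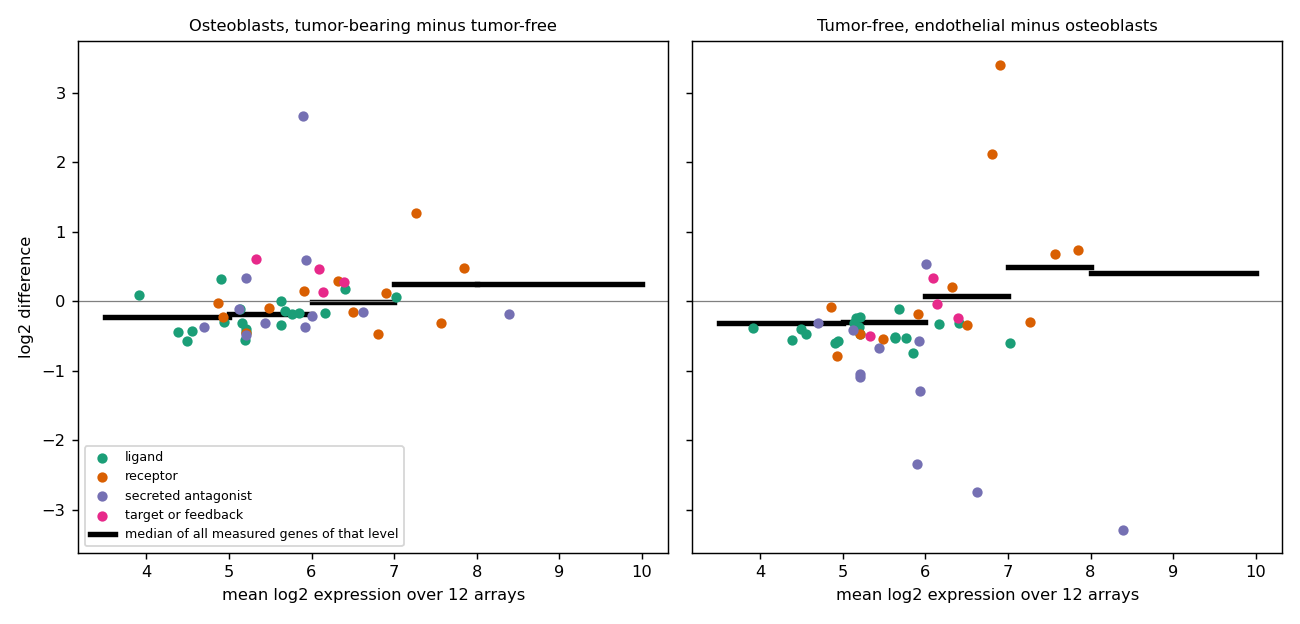
Log2 difference (y axis) of each of the 46 Wnt genes against its mean log2 expression over 12 arrays (x axis), for osteoblasts of tumor-bearing minus tumor-free mice (left) and for endothelial cells minus osteoblasts in tumor-free mice (right); black bars are medians of all measured genes in 5 bands of expression. Below 6 the bars lie under 0 in both panels; Fzd7 and Frzb lie far above the bars in the left panel, and in the right panel Fzd4 and Fzd6 lie far above them and Frzb, Wif1 and Sfrp4 far below.

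In endothelial cells 0 of 34 tested Wnt genes changed with tumor by limma, and 3 had an unadjusted p under 0.05. Over all genes 0.0161% were called higher and 0.00805% lower, or 2 and 1 genes, so this comparison gave almost no calls of any kind. The 34 differences ran from -0.56 to 0.83 with a median of 0.05. The lowest was that of Fzd6, which measured 7.72, 7.37 and 7.60 in endothelial cells with tumor, against 8.07, 8.12 and 8.17 without tumor. These values did not overlap, and the difference of -0.56 ± 0.17 (SE) had a limma adjusted p of 0.445. In osteoblasts Fzd6 was lower with tumor as well, without overlap, at -0.48 ± 0.17 (SE, limma adjusted p 0.121). The highest was that of Sfrp4, at 0.83 ± 0.58 (SE), from endothelial groups that overlapped.

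**Figure D4:**
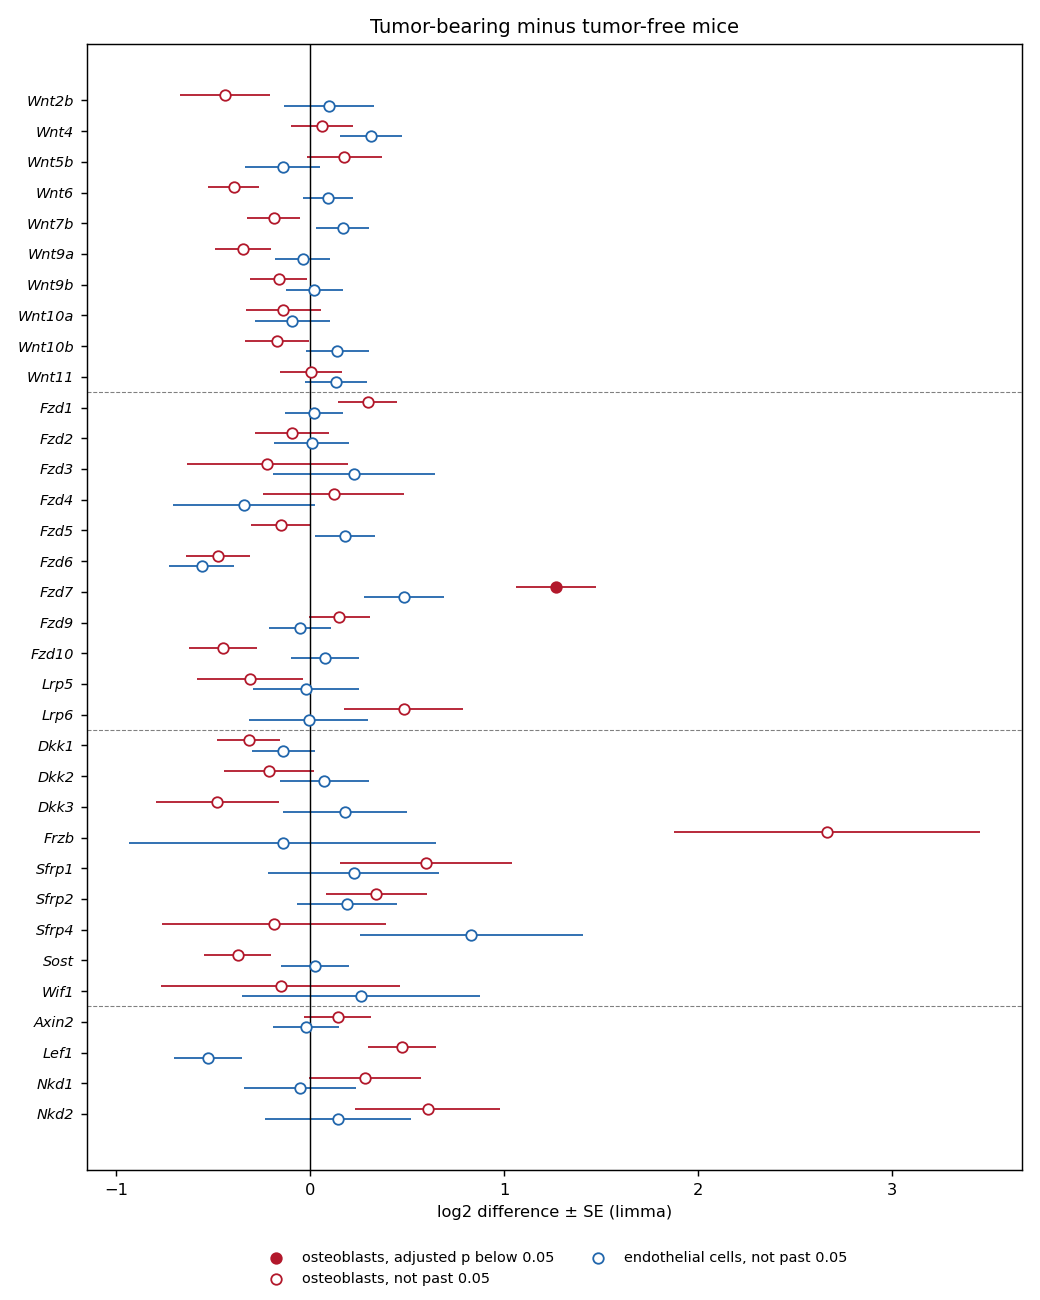
Log2 difference and its SE (x axis) between tumor-bearing and tumor-free mice for the 34 tested Wnt genes (y axis), in osteoblasts and in endothelial cells, with ligands, receptors, antagonists and nuclear or feedback genes separated by dashed lines. Fzd7 in osteoblasts is the only filled point; Frzb in osteoblasts lies farthest to the right, with an SE of 0.79.

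No Wnt gene passed the test of whether the tumor difference differed between the cell types (0 of 34 by limma, 4 at an unadjusted p under 0.05). Over all tested genes 0.0322% passed with a larger and 0.177% with a smaller difference in endothelial cells. Frzb came to -2.81 ± 1.12 (SE, limma adjusted p 0.261). Without tumor-free osteoblast replicate 1 it was -4.00 with a limma adjusted p of 0.00313, and Frzb and Lef1 were then the 2 Wnt genes called. No Wnt gene was called in this test when any other single array was left out.

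Cell type separated the Wnt genes far more than tumor did. Endothelial cells held more of the receptors Fzd4 and Fzd6, and osteoblasts held more of the antagonists Frzb, Sfrp1, Sfrp2, Sfrp4 and Wif1. These 7 genes passed in tumor-bearing and in tumor-free mice. The tumor-free calls of Frzb and Sfrp1 were lost with the replicate number as a block, after quantile normalization and after median centring. In tumor-bearing mice 4 of 34 tested Wnt genes were higher in endothelial cells and 8 were lower (11.8% and 23.5%), against 8.13% and 6.79% of all tested genes. In tumor-free mice 2 were higher and 14 lower (5.88% and 41.2%), against 18.2% and 12.7% of all tested genes. By role, secreted antagonists gave 1 higher and 5 lower of 9 in tumor-bearing mice, and 0 higher and 8 lower of 9 in tumor-free mice. Receptors gave 3 higher and 1 lower of 11 in tumor-bearing mice, and 2 higher and 0 lower in tumor-free mice. Array medians were 0.15 lower in endothelial cells than in osteoblasts of tumor-free mice, and after centring each array on its median the tumor-free split was 3 higher and 5 lower. Of the antagonists, Dkk3, Frzb, Sfrp1 and Sost lost the tumor-free call after this centring. The tumor-bearing count of 12 was 7, 6 and 5 without endothelial tumor-bearing replicate 1, 2 or 3, and 5 without osteoblast tumor-bearing replicate 2. The tumor-free count of 16 was 8, 8 and 10 without endothelial tumor-free replicate 1, 2 or 3.

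**Figure D5:**
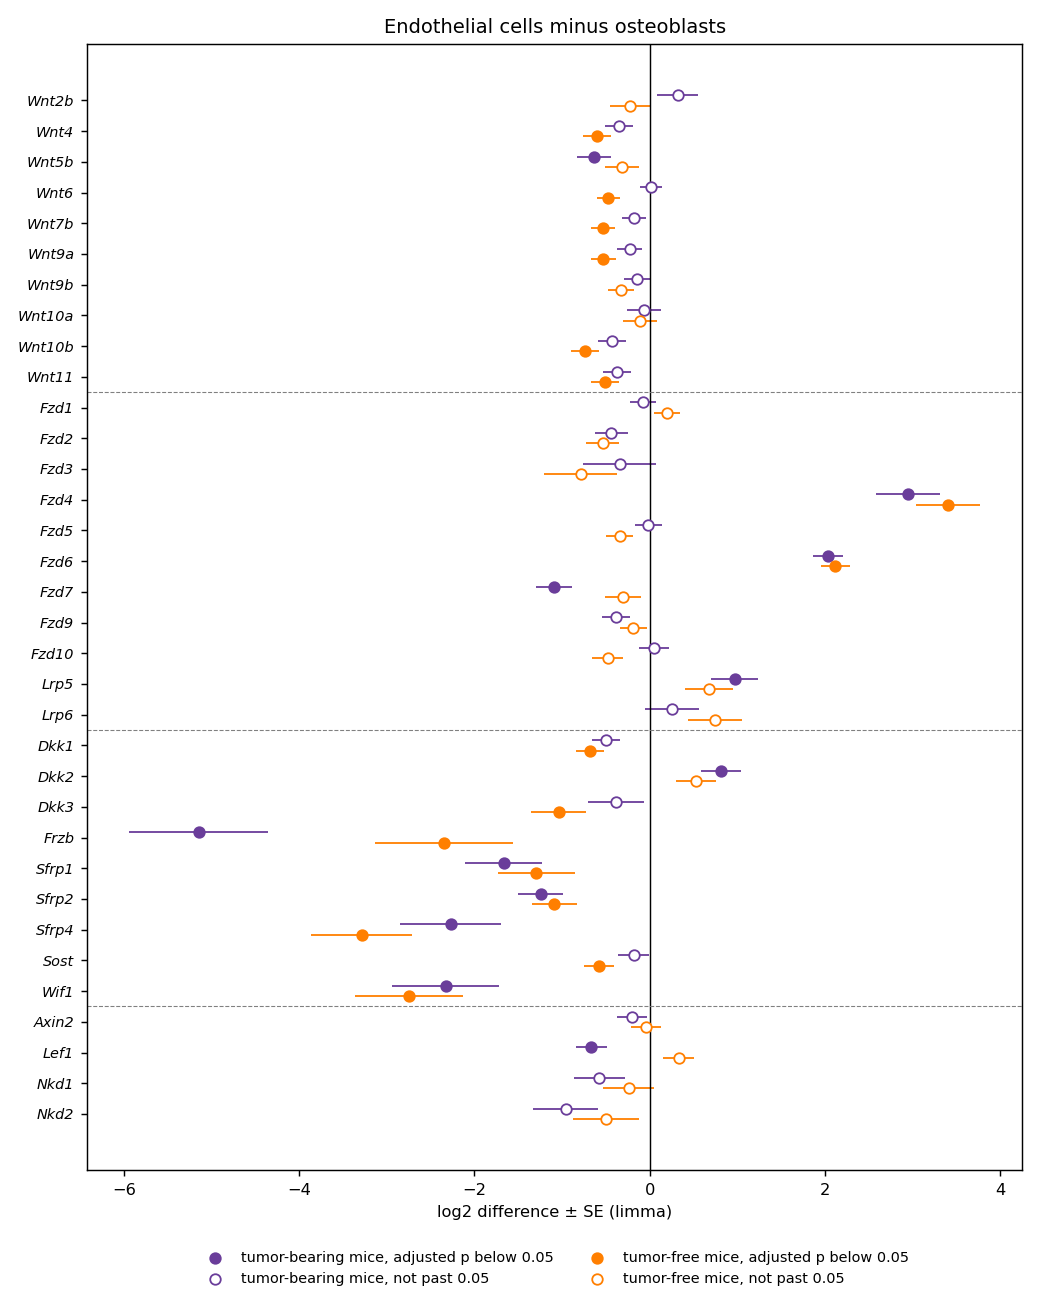
Log2 difference and its SE (x axis) between endothelial cells and osteoblasts for the 34 tested Wnt genes (y axis), in tumor-bearing and in tumor-free mice; filled points have a limma adjusted p below 0.05, and dashed lines separate ligands, receptors, antagonists and nuclear or feedback genes. Fzd4 and Fzd6 stand to the right at 2.04 to 3.41, and Frzb, Sfrp4 and Wif1 stand to the left at -2.27 to -5.15.

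Fzd4, a Frizzled that also serves as the receptor of norrin in the retinal vasculature, had the largest excess in endothelial cells. With tumor it measured 8.41, 7.94 and 8.60 in endothelial cells, against 5.94, 5.27 and 4.90 in osteoblasts. Without tumor it measured 8.70, 8.66 and 8.61 in endothelial cells, against 5.85, 5.52 and 4.38 in osteoblasts. Every endothelial array was about 2 or more log2 units above every osteoblast array. The differences were 2.94 ± 0.37 with tumor and 3.41 ± 0.37 without tumor (SE), or 7.70-fold and 10.6-fold, with limma adjusted p-values of 2.50e-04 and 8.88e-05. Fzd4 passed in all 12 fits that left out 1 array, in both comparisons.

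Fzd6, a Frizzled known from planar cell polarity, behaved alike between the cell types. In tumor-bearing mice it measured 7.72, 7.37 and 7.60 in endothelial cells, against 5.65, 5.26 and 5.66 in osteoblasts. The tumor-free values were 8.07, 8.12 and 8.17 in endothelial cells, against 6.13, 6.11 and 5.76 in osteoblasts. The groups were far apart in both settings and replicates were close. The differences were 2.04 ± 0.17 and 2.12 ± 0.17 (SE), or 4.10-fold and 4.35-fold, with limma adjusted p-values of 1.26e-05 and 1.02e-05, and Fzd6 also passed in every fit without 1 array.

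Fzd7 ran the other way in tumor-bearing mice, where it was 2.13-fold lower in endothelial cells than in osteoblasts. From the values given above, all 3 endothelial arrays of tumor-bearing mice lay below all 3 osteoblast arrays. The difference was -1.09 ± 0.21 (SE, limma adjusted p 0.00427) and passed in all 12 fits without 1 array. In tumor-free mice it was -0.30 ± 0.21 (SE, limma adjusted p 0.271), from groups that overlapped. The tumor-bearing comparison shares its osteoblast arrays with the tumor comparison above.

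The co-receptor Lrp5 measured 7.77, 7.89 and 8.27 in endothelial cells with tumor, against 7.29, 7.15 and 6.57 in osteoblasts. In tumor-free mice it measured 7.97, 8.12 and 7.89 in endothelial cells, against 6.71, 7.74 and 7.50 in osteoblasts. All endothelial values were above all osteoblast values in both settings. The difference passed in tumor-bearing mice, at 0.97 ± 0.27 (SE, limma adjusted p 0.0349), though in only 4 of the 12 fits without 1 array. In tumor-free mice it was 0.68 ± 0.27 (SE, limma adjusted p 0.0794). Lrp6 measured 7.95, 8.15 and 8.18 in endothelial cells with tumor and 8.39, 7.87 and 8.05 without tumor. These lay just above the osteoblast values given above, and neither comparison passed (limma adjusted p 0.703 with tumor and 0.0844 without tumor).

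Frzb showed the largest difference of any Wnt gene between the cell types. With tumor it measured 3.80, 4.26 and 3.78 in endothelial cells, and all osteoblast values given above were far higher. The difference was -5.15 ± 0.79 (SE), or 35.5-fold, with a limma adjusted p of 0.00113, and it passed in all fits without 1 array. In tumor-free mice Frzb measured 4.14, 4.0 and 4.13 in endothelial cells, and the difference of -2.34 ± 0.79 (SE, limma adjusted p 0.0444) passed in only 4 of the 12 fits. Without tumor-free osteoblast replicate 1, which held the high value, it was -1.15 (limma adjusted p 0.036). The chondrocyte markers, which averaged 5.38 to 6.27 on endothelial arrays and 6.60 to 10.15 on osteoblast arrays, moved the same way between the cell types, and their part in the Frzb difference was not tested.

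Sfrp4, an antagonist in which human mutations thin cortical bone, was lower in endothelial cells in both settings. In tumor-bearing mice it measured 7.92, 7.23 and 7.11 in endothelial cells, against 10.42, 9.90 and 8.74 in osteoblasts. Without tumor it measured 7.99, 6.25 and 5.53 in endothelial cells, against 9.55, 10.13 and 9.95 in osteoblasts. The osteoblast values were all above the endothelial ones, and the tumor-free endothelial arrays spread over more than 2 log2 units, with replicate 1 the highest. The differences were -2.27 ± 0.58 with tumor and -3.29 ± 0.58 without tumor (SE), with limma adjusted p-values of 0.0214 and 0.00232. They passed in 8 and in all 12 of the fits without 1 array. Reticular stroma and fibroblast markers averaged 6.46, 5.89 and 5.83 on the tumor-free endothelial arrays, also highest in replicate 1, and their part in the Sfrp4 values was not tested.

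Wif1, which binds Wnt ligands through its own domain and is expressed by osteoblasts, followed the same order. With tumor it measured 5.06, 6.08 and 5.31 in endothelial cells, against the osteoblast values given above, the lowest of which was 6.57. The tumor-free values were 5.25, 5.17 and 5.25 in endothelial cells, again below every osteoblast array. The differences were -2.33 ± 0.61 with tumor and -2.74 ± 0.61 without tumor (SE), or 5.02-fold and 6.70-fold lower, with limma adjusted p-values of 0.0255 and 0.0084. The tumor-bearing call passed in 8 of the 12 fits without 1 array and the tumor-free call in all of them.

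Sfrp1 and Sfrp2, both soluble proteins with a Frizzled-like ligand-binding domain, were lower in endothelial cells as well. Sfrp1 measured 5.37, 5.10 and 5.43 in endothelial cells with tumor, against 8.11, 6.71 and 6.07 in osteoblasts, where replicate 1 stood out as high. In tumor-free mice it measured 5.35, 5.09 and 4.79 in endothelial cells, against 5.75, 6.77 and 6.59 in osteoblasts. The groups did not overlap, and the differences were -1.67 ± 0.44 and -1.29 ± 0.44 (SE, limma adjusted p 0.0261 and 0.0465), passing in 8 and 3 of the 12 fits without 1 array. Sfrp2 measured 4.51, 4.70 and 4.95 in endothelial cells with tumor, against 6.54, 5.96 and 5.38 in osteoblasts. Without tumor it measured 4.60, 4.52 and 4.48 in endothelial cells, against 5.43, 5.89 and 5.55 in osteoblasts. Its differences of -1.24 ± 0.26 and -1.09 ± 0.26 (SE, limma adjusted p 0.00716 and 0.0109) passed in all fits without 1 array.

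The Dickkopf proteins did not share a direction. In tumor-bearing mice Dkk1 measured 5.19, 5.24 and 4.77 in endothelial cells, a difference from the osteoblast values given above of -0.50 ± 0.16 (SE) that did not pass (limma adjusted p 0.0643). Dkk1 in tumor-free mice measured 5.35, 5.13 and 5.14 in endothelial cells and was lower than in osteoblasts, with a difference of -0.68 ± 0.16 (SE, limma adjusted p 0.0115). Dkk1 lay below osteoblasts on all endothelial arrays in both settings. Dkk2, a relative that can activate or inhibit the pathway depending on context, measured 6.26, 6.49 and 6.38 in endothelial cells with tumor, against 5.34, 5.51 and 5.83 in osteoblasts. The tumor-free values were 6.70, 6.10 and 6.11 in endothelial cells, against 6.22, 5.53 and 5.57 in osteoblasts, and only these tumor-free groups overlapped. It was higher in endothelial cells of tumor-bearing mice, by 0.82 ± 0.23 (SE, limma adjusted p 0.0362, 7 of the 12 fits without 1 array), and the tumor-free difference was 0.53 ± 0.23 (SE, limma adjusted p 0.101).

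Dkk3, a divergent member of the family, measured 4.82, 5.09 and 4.91 in endothelial cells with tumor, against 5.40, 5.53 and 5.03 in osteoblasts. In tumor-free mice it measured 4.75, 4.81 and 4.73 in endothelial cells, against 5.30, 5.38 and 6.73 in osteoblasts, with 1 high osteoblast array. The tumor-free difference passed at -1.04 ± 0.32 (SE, limma adjusted p 0.0318) and held in 9 of the 12 fits without 1 array, and the tumor-bearing difference was -0.38 ± 0.32 (SE, limma adjusted p 0.54). Without tumor-free osteoblast replicate 3, the high array, the Dkk3 difference was -0.58 and still passed. Sost measured 5.62, 5.99 and 5.62 in endothelial cells with tumor and 5.65, 5.61 and 5.91 without tumor. Against the osteoblast values given above it was lower in tumor-free mice, with a difference of -0.58 ± 0.17 (SE, limma adjusted p 0.0297, 8 of the 12 fits), and not called in tumor-bearing mice (-0.18 ± 0.17, SE, limma adjusted p 0.611).

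Of the 10 tested ligands, 1 was lower in endothelial cells of tumor-bearing mice (Wnt5b), and 6 others were lower in those of tumor-free mice. Over all tested genes 6.79% were lower in tumor-bearing mice and 12.7% in tumor-free mice. The 6 were Wnt10b, which promotes bone formation in mice, Wnt4, Wnt6, Wnt7b, which also promotes bone formation in mice, Wnt9a, known from joint development, and Wnt11. In tumor-bearing mice Wnt10b measured 5.56, 5.81 and 5.50 in endothelial cells, against 5.87, 6.12 and 6.16 in osteoblasts. In tumor-free mice Wnt10b measured 5.38, 5.37 and 5.71 in endothelial cells, against 6.35, 6.29 and 6.03 in osteoblasts. Endothelial values were below all osteoblast values in both settings. The tumor-free difference was -0.74 ± 0.16 (SE, limma adjusted p 0.00776), and Wnt10b was the ligand that passed in all 12 fits without 1 array and after median centring. It did not pass when tumor-free replicate 1 of both cell types was left out together, at -0.62 (limma adjusted p 0.0554).

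In tumor-bearing mice Wnt4 measured 6.75, 6.92 and 7.18 in endothelial cells, against 7.14, 7.40 and 7.34 in osteoblasts, groups that overlapped. In tumor-free mice Wnt4 measured 6.62, 6.53 and 6.76 in endothelial cells, against 7.07, 7.19 and 7.43 in osteoblasts, a difference of -0.60 ± 0.16 (SE, limma adjusted p 0.0187). The second, dimmer Wnt4 probe set measured 5.23, 5.09 and 5.08 in endothelial cells and 6.05, 5.88 and 5.82 in osteoblasts of tumor-free mice, in the same direction. In tumor-bearing mice this probe set measured 5.21, 5.41 and 4.78 in endothelial cells, against 5.59, 5.62 and 6.47 in osteoblasts, without overlap. With the mean of probe sets 2 ligands were called lower in endothelial cells of tumor-bearing mice, against 1 with the brightest probe set. Wnt7b measured 5.53, 5.47 and 5.52 in endothelial cells without tumor, against 5.90, 6.18 and 6.04 in osteoblasts. Wnt9a measured 5.41, 5.59 and 5.40 in endothelial cells, against 6.04, 5.92 and 6.04 in osteoblasts. For both ligands the tumor-free groups were well separated, with differences of -0.53 ± 0.14 and -0.53 ± 0.14 (SE, limma adjusted p 0.0156 and 0.0188).

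Wnt6 measured 5.03, 5.06 and 5.04 in endothelial cells without tumor, against 5.52, 5.46 and 5.56 in osteoblasts. Only these tumor-free osteoblast arrays carried Wnt6 through the filter on low values. Wnt11 measured 5.26, 5.43 and 5.35 in endothelial cells, against 5.92, 5.86 and 5.78 in osteoblasts. Each group was tight and the groups did not overlap, with differences of -0.47 ± 0.13 and -0.51 ± 0.16 (SE, limma adjusted p 0.0216 and 0.035). In tumor-bearing mice the endothelial and osteoblast values were 5.60, 5.73 and 5.69 against 5.69, 6.04 and 5.82 for Wnt7b, and 5.43, 5.51 and 5.34 against 5.43, 5.66 and 5.85 for Wnt9a. They were 5.16, 5.22 and 5.02 against 4.96, 5.30 and 5.10 for Wnt6, and 5.47, 5.53 and 5.45 against 5.50, 6.10 and 5.97 for Wnt11. These 4 ligands did not pass in tumor-bearing mice, and Wnt4, Wnt6, Wnt7b, Wnt9a and Wnt11 each lost the tumor-free call in 1 to 7 of the 12 fits without 1 array.

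The ligand calls in tumor-free mice stood against the same shift of dim probe sets. Genes with a mean between 5 and 6 had a median endothelial minus osteoblast difference of -0.05 in tumor-bearing mice and -0.30 in tumor-free mice, and 45.4% of them had all tumor-free endothelial values below all osteoblast values. After quantile normalization 4 of the 10 ligands were called lower in tumor-free mice, and after median centring 1 was. Of the antagonists called lower in tumor-free mice, Dkk1, Dkk3, Frzb, Sfrp1, Sfrp2 and Sost also had means between 5 and 6. The part of the dim-level shift in the ligand and antagonist calls was not tested. Wnt5b, a ligand known from cartilage development, measured 6.14, 6.23 and 5.92 in endothelial cells with tumor, against 6.35, 7.09 and 6.77 in osteoblasts. Without tumor it measured 6.09, 6.43 and 6.20 in endothelial cells, against 6.44, 6.57 and 6.67 in osteoblasts. The tumor-bearing difference of -0.64 ± 0.19 (SE, limma adjusted p 0.0493) passed narrowly and in only 2 of the 12 fits without 1 array.

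In the nuclear and feedback arm 1 of 4 genes was called between the cell types. It was called in tumor-bearing mice, where 6.79% of all tested genes were lower in endothelial cells. Lef1 was lower in endothelial cells of tumor-bearing mice, with a difference of -0.67 ± 0.18 (SE, limma adjusted p 0.0263), with no overlap of the values given above, and passed in 8 of the 12 fits without 1 array. In tumor-free mice its difference was 0.33 ± 0.18 (SE, limma adjusted p 0.164). In endothelial cells Axin2 measured 6.29, 6.24 and 5.68 with tumor and 6.15, 6.04 and 6.08 without tumor, close to the osteoblast values. Nkd1 measured 6.23, 6.31 and 5.96 with tumor and 6.35, 6.23 and 6.08 without tumor. Nkd2 measured 5.29, 5.07 and 4.76 with tumor and 4.72, 4.90 and 5.08 without tumor. None of these 3 was called between the cell types, and the smallest limma adjusted p among them was 0.125, for Nkd2 in tumor-bearing mice.

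The 9 tested members not described so far were the ligands Wnt2b, Wnt9b and Wnt10a and the receptors Fzd1, Fzd2, Fzd3, Fzd5, Fzd9 and Fzd10. Their values ran from 4.17 for Fzd3 to 6.75 for Fzd5. None was called in any comparison. Their tumor differences ran from -0.45 to 0.29 in osteoblasts and from -0.09 to 0.22 in endothelial cells, and their differences between the cell types from -0.44 to 0.32 in tumor-bearing mice and from -0.79 to 0.20 in tumor-free mice.

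The 250 bases upstream of the annotated start were read for 4 members whose results stand out, to show whether the core that TCF and LEF factors recognise lies there. Fzd7 was the gene called with tumor, and Fzd4 had the largest endothelial excess. Frzb and Dkk1 were called antagonists whose windows held the core, so its presence in them was known beforehand and is no result. The windows are from the RefSeq promoter table of mouse build GRCm38.p6, written 5′ to 3′ on the strand of the gene, with the 6-base core CTTTGA or its complement TCAAAG in capitals. They lie at chr1:59481897-59482146 (plus strand) for Fzd7, chr7:89404116-89404365 (plus strand) for Fzd4, chr2:80447397-80447646 (minus strand) for Frzb and chr19:30549497-30549746 (minus strand) for Dkk1.
Fzd7: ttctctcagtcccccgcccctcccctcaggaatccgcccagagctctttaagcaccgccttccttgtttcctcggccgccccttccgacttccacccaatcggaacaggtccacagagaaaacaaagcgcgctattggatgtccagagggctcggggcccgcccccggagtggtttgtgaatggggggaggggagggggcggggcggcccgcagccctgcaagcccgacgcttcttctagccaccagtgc
Fzd4: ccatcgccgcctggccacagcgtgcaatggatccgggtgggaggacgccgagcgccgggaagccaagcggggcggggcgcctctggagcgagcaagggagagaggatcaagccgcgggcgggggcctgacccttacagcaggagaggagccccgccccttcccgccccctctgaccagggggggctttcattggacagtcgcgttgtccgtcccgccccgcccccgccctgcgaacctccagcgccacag
Frzb: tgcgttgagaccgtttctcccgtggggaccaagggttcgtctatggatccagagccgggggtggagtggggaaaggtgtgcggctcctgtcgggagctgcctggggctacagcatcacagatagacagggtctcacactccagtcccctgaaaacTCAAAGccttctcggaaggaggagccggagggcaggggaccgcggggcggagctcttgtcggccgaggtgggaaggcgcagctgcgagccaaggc
Dkk1: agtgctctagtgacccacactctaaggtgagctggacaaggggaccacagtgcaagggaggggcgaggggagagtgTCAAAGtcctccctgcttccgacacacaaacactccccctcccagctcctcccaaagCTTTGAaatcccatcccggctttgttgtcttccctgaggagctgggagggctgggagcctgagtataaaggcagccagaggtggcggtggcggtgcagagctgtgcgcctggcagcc
The core was found once in Frzb, beginning 95 bases before the start on the opposite strand. It was found in Dkk1 at 174 bases before the start on the opposite strand and at 117 bases on the gene's strand. It was in neither Fzd7 nor Fzd4, which says only that these letters are not in these windows. Other spellings of the TCF and LEF core were not searched, so these windows may hold them. Windows were searched for 32 of the 46 members with 38 starts, and 6 of these 38 windows (15.8%) had the core, in Dkk1, Frzb, Fzd1, Lef1, Wnt11 and Wnt5b. Of all 32851 windows in the promoter table, 13.8% had it, so its share among Wnt genes was near that of all genes. The Fzd7, Fzd4, Frzb and Dkk1 windows had 65.2%, 72.8%, 64.4% and 60.8% G and C, against a median of 52.4% over all windows.

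Other genes of the pathway were counted in 3 lists. Of 21 tested genes that act in Wnt secretion, potentiation or as other receptors, 2 were higher in osteoblasts of tumor-bearing mice and 0 lower. Over all tested genes 4.01% were higher and 0.571% lower in this comparison. Reck, a membrane protein that works with a Wnt7 co-receptor in brain vessels, measured 8.16, 7.80 and 7.72 with tumor, against 6.63, 6.72 and 6.59 without tumor. Gpc6, a glypican, measured 9.19, 9.11 and 8.66 with tumor, against 7.49, 8.07 and 7.71 without tumor. Neither pair of groups overlapped, and the differences were 1.25 ± 0.22 and 1.23 ± 0.22 (SE, limma adjusted p 0.0129 and 0.0134). Of 34 intracellular components none was called with tumor in osteoblasts. Of 22 other known Wnt target genes 3 were higher in osteoblasts of tumor-bearing mice and 0 lower: the hyaluronan receptor Cd44 by 1.38 ± 0.22, the matricellular gene Ccn1 by 1.27 ± 0.23 and Tnfrsf11b, which encodes osteoprotegerin, by 1.61 ± 0.29 (SE, limma adjusted p 0.00967, 0.0134 and 0.0148). The median tumor differences of the 3 lists in osteoblasts were 0.13 and 0.14 for the secretion and the intracellular list and near 0 for the target list, and that of all tested genes was near 0. In endothelial cells, and in the test of whether the tumor difference differed between cell types, 0 genes of the 3 lists were called.

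Between endothelial cells and osteoblasts, 8.13% of all tested genes were higher and 6.79% lower in tumor-bearing mice, while 18.2% were higher and 12.7% lower in tumor-free mice. The secretion and receptor list gave 1 higher and 7 lower of 21 in tumor-bearing mice, and 1 higher and 6 lower in tumor-free mice. Tspan12, a tetraspanin that acts with Fzd4 in norrin signalling, measured 10.05, 10.02 and 9.68 in endothelial cells without tumor, against 5.31, 6.74 and 7.13 in osteoblasts. Its difference of 3.52 ± 0.41 (SE, limma adjusted p 1.64e-04) had the direction of Fzd4. Rspo3, an R-spondin that strengthens Wnt signalling, was lower in endothelial cells, with differences of -2.69 ± 0.36 with tumor and -2.68 ± 0.36 without tumor (SE, limma adjusted p 4.63e-04 and 4.68e-04). Its receptor Lgr4 was lower as well, with differences of -1.46 ± 0.29 and -1.29 ± 0.29 (SE, limma adjusted p 0.00603 and 0.00907). Rspo3 and Lgr4 had the direction of the antagonists.

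Intracellular components gave 3 higher and 1 lower of 34 in tumor-bearing mice, and 10 higher and 3 lower in tumor-free mice. Prickle2, of the planar cell polarity branch, was higher in endothelial cells by 1.48 ± 0.17 with tumor and 1.41 ± 0.17 without tumor (SE, limma adjusted p 1.54e-04 and 2.18e-04). Daam2, a formin that binds Dishevelled, was lower, with differences of -1.37 ± 0.25 and -1.45 ± 0.25 (SE, limma adjusted p 0.00352 and 0.00222). Other target genes gave 1 higher and 10 lower of 22 in tumor-bearing mice, and 1 higher and 11 lower in tumor-free mice. The higher one was Sox17, a transcription factor of endothelium, at 2.85 ± 0.33 with tumor and 2.30 ± 0.33 without tumor (SE, limma adjusted p 1.52e-04 and 6.58e-04). Among the lower ones was Ccn4, a matricellular gene also named Wisp1, at -1.22 ± 0.16 and -1.19 ± 0.16 (SE, limma adjusted p 4.37e-04 and 5.01e-04). The median differences between the cell types of the 3 lists were -0.58, 0.09 and -0.87 in tumor-bearing mice and -0.46, 0.31 and -0.68 in tumor-free mice, while those of all tested genes were near 0 in tumor-bearing mice and 0.03 in tumor-free mice.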

How the data were processed

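RNA of sorted cells (Pico Pure kit) was amplified and biotin-labelled for arrays, per the labels' protocols. The deposited values are log2 expression of 34760 probe sets on 12 arrays, made with affy per the submitters' processing notes; its version, background correction and normalization: not given in the sources used here. The deposited table ranges from 1.55 to 12.9, and how far a probe set lay above background was not used here, so the number of arrays limits the precision.

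Groups came from the sample titles, 3 arrays each, and 0 of 66 array pairs held identical values. The platform annotation gave 1 symbol for 21640 probe sets, several for 1321 and none for 11799, and probe sets with several or none named no gene. A gene was tested if its probe set exceeded the table's median in 3 or more of 12 arrays, which kept 12430 of 19937 genes (62.3%). Tests were limma 3.58.1 (lmFit and eBayes) in R 4.3.3, with 1 mean per group over all 12 arrays, 8 residual and 2.89 prior degrees of freedom, two-sided, with Benjamini-Hochberg adjustment over all tested genes. Errors are thus shared by all groups, although the median SD of a gene was 0.219 in osteoblasts of tumor-bearing mice, against 0.328 in those of tumor-free mice, and 0.189 and 0.173 in endothelial cells of tumor-bearing and tumor-free mice. Steps were tested on simulated data. Folds are 2 to the power of the absolute difference.

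Values on each array are given for members past the threshold in any comparison and for Sost, Dkk1, Wif1, Lrp5, Lrp6, Axin2, Lef1, Nkd1 and Nkd2. Of the other pathway lists up to 4 genes per list and comparison with the smallest p are named, and 3 genes of the target list are not analysed here. The members and lists were chosen with earlier results of these data known. Alternatives were a replicate block, quantile normalization, median centring, no filter or one at the 70th percentile, a robust fit with an intensity trend, the mean of probe sets, array weights, only the groups compared, leaving out each array, and leaving out tumor-free replicate 1 of both cell types.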

Additional observations from a re-analysis of the deposited data

How the results depend on the processing

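With 3 arrays a group, 1 array often decided a call. The number of Wnt genes called with tumor in osteoblasts was 1, and it was 3 without the filter (Fzd7, Wnt2 and Wnt3), 2 with array weights (Fzd7 and Frzb), 0 with only the groups compared, and 2 when tumor-free replicate 1 was left out in both cell types. Leaving out 1 array gave 1 to 2. With tumor in endothelial cells it was 0 under every alternative run. Between the cell types in tumor-bearing mice it was 12, and 21 with array weights; leaving out 1 array gave 5 to 13. In tumor-free mice it was 16, and 8 after median centring, 7 with the filter at the 70th percentile, where 16 members were tested, and 8 with only the groups compared, but 22 without the filter, where 46 members were tested, and 18 with an intensity trend and robust estimation; leaving out 1 array gave 8 to 17. The tumor difference in endothelial cells minus that in osteoblasts gave 0, and 1 with array weights and 1 when tumor-free replicate 1 was left out in both cell types (Frzb each time); leaving out 1 array gave 0 to 2. The Wif1 tumor difference in osteoblasts was -0.15 and ran from -0.85 to 0.47 when 1 array was left out. The cause of these changes was not tested, except that fewer members are tested with the stricter filter and fewer arrays enter the fit of 2 groups.

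Over all tested genes same-numbered arrays did not deviate together, with correlations of -0.26 to 0.11 between their deviations from group means. In 2 gene lists, however, tumor-free replicate 1 was the highest of its group in both cell types. These were the immediate early genes and the smooth muscle and pericyte markers. The labels do not say whether same-numbered arrays share mice. With the replicate number as a block 1 member was called with tumor in osteoblasts, 10 between the cell types in tumor-bearing mice and 15 in tumor-free mice, and 0 in the other comparisons.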
